A study of Caenorhabditis elegans with 2 samples.

Results

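The regions described here are the CEC-7 binding sites on chromosome II of Caenorhabditis elegans, taken as all rows of the deposited peak list that name chromosome II. They number 567 of 2767 peaks, 20.5% of the list. CEC-7 is the product of Y37D8A.11 and is named for its chromodomain, and its binding was mapped by chromatin immunoprecipitation and sequencing (ChIP-seq) with an affinity-purified rabbit polyclonal antibody. The worms were hermaphrodites of the strain fem-2(b245), grown at 20 degrees Celsius, and both libraries carry the fem-2(b245) allele. They are labelled as young adults with a germline, whereas the growth protocol describes cultures grown until gravid. Whole worms were ground up, so no tissue is set apart from another. There was 1 ChIP library with a peak list and 1 input DNA library, both numbered replicate 2. No value below has a replicate, and every comparison is a description of this 1 list.

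A chromodomain is a small protein fold. Many of them recognise histone tails through a methylated lysine, and such readers are known both at active genes and in silent chromatin. The autosomes of this worm have gene-rich centres with many conserved, broadly used genes. Their arms recombine more and hold large families of fast-changing genes, such as those for F-box and MATH-domain proteins and for chemoreceptors. Chromosome II is known for a large cluster of the F-box and MATH families on its left arm. The fem-2 gene, which encodes a protein phosphatase, acts in sex determination.

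The peaks of II lay in gene bodies almost throughout. Of the bases under peaks, 93.5% fell within protein-coding genes, although these genes make up 62.5% of the chromosome. Peaks covered 14.1% of the gene bases of II and 1.65% of the other bases, a ratio of 8.59. With annotated pseudogenes counted as genes, 95% of the bases under peaks lay in a gene. On chromosomes I, III, IV and V together, 12.1% of gene bases and 1.15% of other bases were under peaks. The genes come from the RefSeq table of assembly WBcel235 and the peaks are on WormBase WS220. The shift between these builds was not measured here, and a gene was counted as at a peak when its body came within 500 bp of it. The table gives no strand, so gene starts cannot be told from gene ends here.

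**Figure D1:**
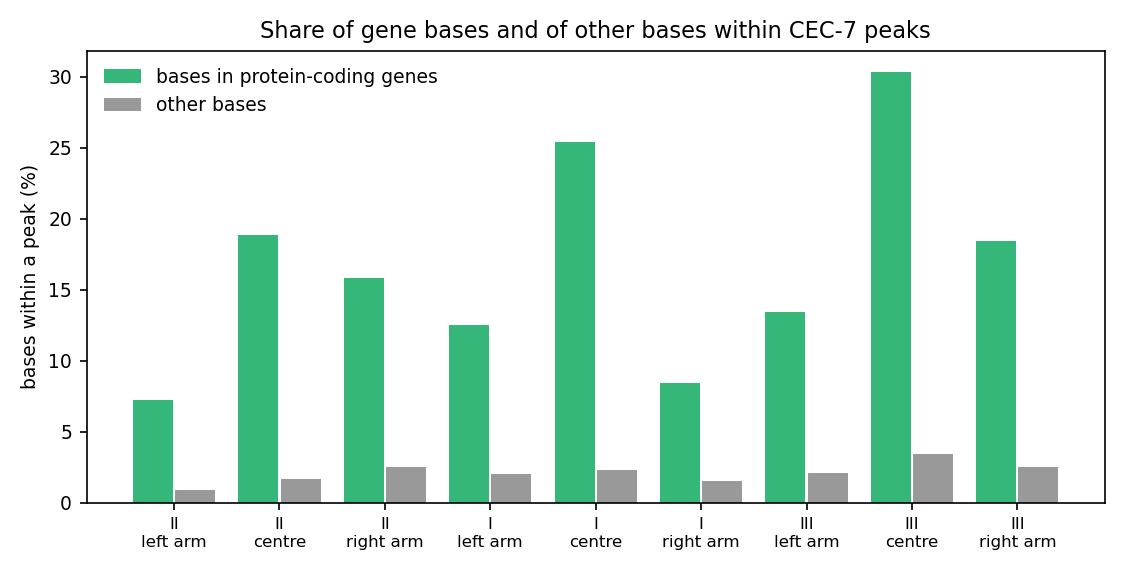
Bars give the percent of bases within a CEC-7 peak on the y axis, green for bases in protein-coding genes and grey for other bases, for the left arm, centre and right arm (3 equal parts of the length) of chromosomes II, I and III on the x axis. Green stands above grey in all 9 regions, and the left arm of II has the lowest green bar drawn, 7.26%. On chromosomes not drawn, the share of gene bases was 6.91% on the left and 7.61% on the right arm of IV. On V it was 3.61% on the left and 3.13% on the right arm.

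By that measure 556 of the 567 peaks had a protein-coding gene (98.1%, exact 95% interval 96.6 to 99.0%, counting error only). A single gene was found at 264 peaks, a pair at 185, 3 at 83 and 4 or more at 24. The more genes a peak reached, the wider it was, with a median of 1687.5 bp for 1 gene and 3775.5 bp for 4 or more, though a wider peak also has more room for genes. Conversely, 734 of the 3446 protein-coding genes on II were at a peak, 21.3% (exact 95% interval 19.9 to 22.7%). On I, III, IV and V the share was 20.0%. Of the 734 genes, 642 shared bases with a peak, and a median of 74.4% of such a gene's length was covered. With all peaks on a gene counted, 80% or more of the body was covered for 292 genes, and 117 were covered from end to end. Genes at peaks had a median length of 2476 bp and the others 1685.5 bp. A longer gene also has more bases that a peak can touch.

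Genes at peaks lay side by side. They formed 240 runs of neighbouring protein-coding genes, of which 65 were single genes, and 549 of the 734 genes stood in runs of 3 or more. A peak that reaches several genes makes such a run by the counting rule alone. There were 185 peaks at 2 genes, 83 at 3 and 24 at 4 or more, and no expected number of runs was computed. The longest run held 16 genes, from F59E12.3 to vps-13D. It included zyg-1, which encodes the kinase that starts centriole duplication, mdt-26, for a subunit of the Mediator complex, and bli-2, for a cuticle collagen. The run lies in the longest stretch of closely spaced peaks on II, which takes 12 peaks over 53884 bp at chrII:5639996-5693879. The next 5 by length were on the right arm, and after them came a stretch of 6 peaks on the left arm, at chrII:227688-253107. The 9 peaks at chrII:13185611-13216842 lay at 5 genes, among them lec-1, for a galectin. The 7 peaks at chrII:14383927-14413293 lay at 7 genes, among them mes-2, for the H3K27 methyltransferase of the Polycomb complex, kbp-3, for a kinetochore protein, and dsb-2, needed for meiotic DNA breaks. The gap to the next peak was under 1000 bp for 157 of 566 gaps (27.7%, exact 95% interval 24.1 to 31.6%).

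The left and right arms differed in how many peaks they carried. With the length cut into 3 equal parts, the left arm held 107 peaks at a density of 21 per Mb (95% interval 17.2 to 25.4, exact for a Poisson count), and the right arm 243, 47.7 per Mb (41.9 to 54.1). The centre held 217, 42.6 per Mb (37.1 to 48.7). The ratio of right to left was 2.27 (exact conditional 95% interval 1.80 to 2.88). The same ratio was 0.597 on I (0.480 to 0.741) and 1.22 on III (1.01 to 1.47). On IV it was 0.842 (0.649 to 1.09) and on V 0.935 (0.669 to 1.31). Both arms of those chromosomes were sparse, with 22.8 peaks per Mb on the left and 19.2 on the right arm of IV. The arms of V had 11.0 and 10.3 per Mb. Intervals cover counting error only, and neighbouring peaks are not independent, so the true uncertainty is larger. The arms of II were named for comparison with their peak numbers already known, so no test was made.

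In width and score the medians of both arms were close and those of the centre stood above them. The median width was 1844 bp on the left arm (quartiles 1332.5 and 2680 bp), 1816 bp on the right arm (1333.5 and 2777.5 bp) and 2517 bp in the centre (1715 and 3792 bp). The score is a value the authors' caller gave to each peak, and its median was 111 on the left arm, 125 on the right and 168 in the centre. Peaks of 4000 bp or more made up 8.41% of the peaks on the left arm (9 peaks), 9.88% on the right (24) and 22.6% in the centre (49). The arms of II thus differed in the number of peaks and hardly in their size.

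Gene number did not run with peak number. The left arm has more protein-coding genes than the right, 1255 against 951, and its peaks came to 8.53 per 100 genes, against 25.6 on the right arm and 17.5 in the centre. A peak lay at 121 genes of the left arm, 9.64%, at 265 of the right arm, 27.9%, and at 348 of the 1240 in the centre, 28.1%. The right arm minus the left was 18.2 percentage points (Newcombe 95% interval 15.0 to 21.5). Left-arm genes were shorter, with a median of 1621 bp against 2133 bp. With the genes of II cut into 4 classes of length, those in the shortest, up to 1129 bp, had the fewest peaks on the left arm: 4.22% were at a peak there and 15.6% on the right. In the class of the longest genes the shares were 24.4% and 37.5%. The left arm was the lower in all 4 length classes.

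**Figure D2:**
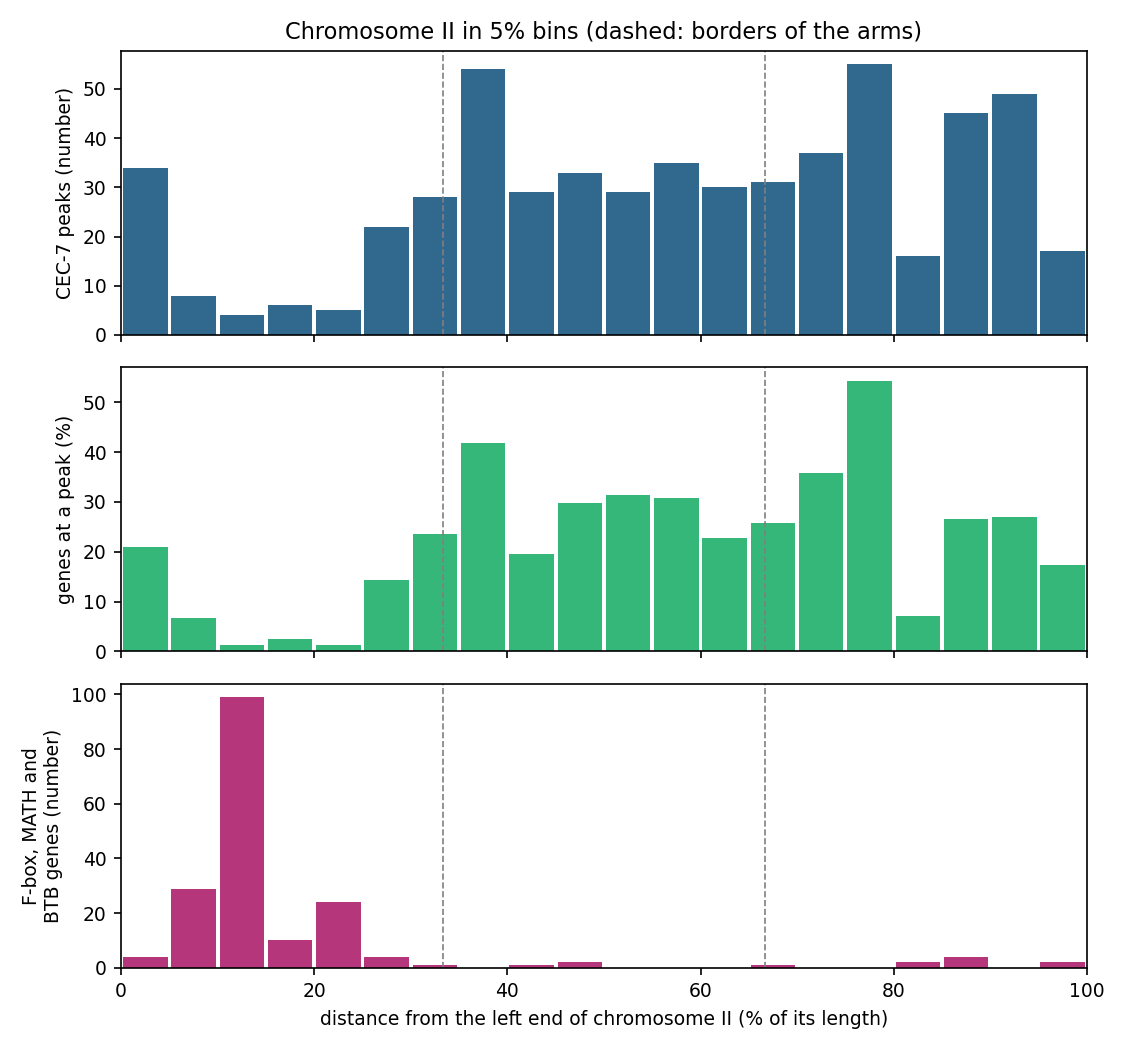
The x axis runs along chromosome II from its left end in bins of 5% of its length, and bars give the number of CEC-7 peaks (top), the percent of protein-coding genes at a peak (middle) and the number of F-box, MATH and BTB genes (bottom). Dashed lines mark the borders of the arms. The 4 bins between 5 and 25% hold 8, 4, 6 and 5 peaks, and the bin with 99 F-box, MATH and BTB genes holds 4.

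The left arm was not evenly sparse. Its outermost 5% of the chromosome held 34 peaks at 44.5 per Mb (30.8 to 62.2), and its inner edge, from 25% to the border with the centre, held 50 at 39.3 per Mb (29.1 to 51.8). The outermost 5% at the right end held fewer, 17 peaks, with 17.3% of genes at a peak, against 20.9% at the left end. The right arm was uneven too. From 80 to 85% of the length, a bin picked after the values were seen, it held 16 peaks. There 12 of 171 genes were at a peak (7.02%). Between 5 and 25% of the length, a span chosen after the values were seen, 23 peaks gave 7.53 per Mb (4.77 to 11.3). A peak lay at 21 of the 811 genes of that span, 2.59%. Of these 811 genes, 249 belonged to 5 large families, matched by symbol, with 93 F-box genes (fbxa, fbxb and fbxc symbols), 69 MATH and BTB genes (math, bath and btb symbols), 65 chemoreceptor genes, 20 C-type lectin genes and 2 nuclear hormone receptor genes. The longest stretch of II without a listed peak, 559 kb at chrII:1498713-2057757, had 169 genes, of which 42 were F-box and 51 MATH or BTB genes. The next 3 were also on the left arm, at chrII:3083348-3486201, chrII:727641-1127683 and chrII:3543252-3925310. Stretches over 100 kb without a peak came to 3741 kb on the left arm, 1528 kb in the centre and 1757 kb on the right arm.

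The 23 peaks inside the sparse span lay at 21 genes or at none. The highest score among those with a protein-coding gene was 370 for chrII:1406881-1411576, at cogc-4, for a subunit of a Golgi tethering complex. A peak at chrII:2236720-2238822 (score 240) lay at cct-3, for a subunit of the chaperonin that folds actin and tubulin. The widest, 6916 bp at chrII:1145311-1152226 (score 233), lay at pod-2, for acetyl-CoA carboxylase. Others were at copb-1, for a coat protein of Golgi vesicles (score 116), at smu-2, for a splicing factor (83.74), and at emc-1, for a subunit of the membrane protein complex of the endoplasmic reticulum (76.47). The peaks at chrII:1450608-1454987 (score 498, the highest of the span) and chrII:1455733-1458418 (283) had no protein-coding gene within 500 bp. The first of these lay at the pseudogene Y51H7C.42. These genes were picked after their values were seen.

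The difference between the arms was also present among genes outside the large families. F-box, MATH and BTB, chemoreceptor, C-type lectin and nuclear hormone receptor genes made up 22.9% of the genes on the left arm, and 0 of these 288 genes were at a peak. They made up 8.41% on the right arm, with 2 of 80 at a peak, and 3.79% in the centre, with 3 of 47. Among the remaining genes, 121 of 967 were at a peak on the left arm (exact 95% interval 10.5 to 14.8%), 30.2% of 871 on the right (27.2 to 33.4%) and 28.9% of 1193 in the centre (26.4 to 31.6%).

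The 5 strongest peaks of the left arm lay near its tip and near its inner border. The highest score, 727.24, belonged to a peak of 7501 bp at chrII:4947990-4955490. It covered 4 genes from end to end, zyg-12, whose Hook protein ties centrosomes to the nucleus, pbs-3, for a catalytic-core subunit of the proteasome, ndx-3, for a Nudix hydrolase, and try-1, for a trypsin-like protease. It also touched ulp-2, for a SUMO protease. The second, chrII:4425267-4431699 (score 716.84), covered 86.4% of toe-1. The next pair, chrII:249266-253107 (643.79) and chrII:244639-248853 (555.57), both lay within scc-2, for the loader of cohesin, a gene of 14475 bp of which peaks covered 79.3%. The last of the 5, chrII:5087505-5091758 (502.77), lay on pld-1, for phospholipase D.

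On the right arm the highest score, 806.91, belonged to chrII:15004429-15009326, which covered 80.4% of Y53F4B.9, a gene with no name in the table. The second, chrII:12843284-12846480 (768.23), was unlike the rest: 8.76% of it lay in a protein-coding gene, pes-10, which is known for its expression in the early embryo. The third, chrII:10579232-10584252 (738.55), covered 4 genes from end to end. These were rpb-6, for a subunit shared by RNA polymerases, dohh-1, for deoxyhypusine hydroxylase, and dap-3 and mrps-22, for proteins of the mitochondrial ribosome. The fourth, chrII:11114332-11120749 (732.84), lay wholly within apc-1, for the largest subunit of the anaphase-promoting complex, and covered 50.8% of it. The fifth, chrII:14769301-14776404 (730.59), lay wholly within Y54E2A.4.

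The centre held 9 of the 10 highest scores of II, all but that at Y53F4B.9. The strongest peak, chrII:5669656-5675587 (score 1314.65), covered 30.2% of vps-13D, a gene of 19270 bp for a lipid transfer protein. The next, chrII:8593968-8600508 (1038.11), covered aptf-3, for a transcription factor of the AP-2 family, and pigg-1 from end to end and touched cpf-1, for a factor in mRNA 3′ end formation. The third, chrII:10173619-10179867 (1003.92), lay at gsox-1 and wbp-11. After it came chrII:9336611-9341060 (883.10) at scp-1, for the SREBP escort protein, and ttll-12, for a protein of the tubulin tyrosine ligase family. The peak at chrII:7073652-7078722 (837.75) covered kat-1, for a thiolase of fatty acid oxidation, and T02G5.7. Next, chrII:7700057-7705433 (810.25) covered 70.4% of cdk-11.1, for a cyclin-dependent kinase, and the whole of B0495.7. Then chrII:6735172-6742057 (805.73) covered T14B4.1 and mrps-18.C, for a mitochondrial ribosomal protein, and reached exos-8, for a subunit of the RNA exosome. The ninth, chrII:9323702-9329273 (802.35) covered egli-1 and 91.8% of eat-3, for the dynamin that fuses inner mitochondrial membranes. The last of the 10, chrII:7050636-7056387 (782.73), covered 5 small neighbouring genes, from ZK1127.5 to ZK1127.3.

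Of the 5 widest peaks, 4 had over 90% of their bases in protein-coding genes. Across the 264 peaks with 1 gene, Spearman's rho between peak width and gene length was -0.043, a description with no test. The widest, 14431 bp at chrII:11661291-11675721 (score 392.76), covered 98.6% of trr-1, a gene of 14359 bp for the TRRAP scaffold of histone acetyltransferase complexes, and 98.1% of the peak lay in that gene. The second, 11515 bp at chrII:12150743-12162257 (670.70), spanned a row of short genes and pseudogenes. It covered Y57A10A.4 and Y57A10A.5 whole, with 41.5% of its bases in protein-coding genes, and 94.0% once the pseudogenes Y57A10A.3, Y57A10A.6 and Y57A10A.7 were counted. The third, 10218 bp at chrII:8017762-8027979 (694.48), covered hda-2, for a histone deacetylase, and swsn-7, for a subunit of the SWI/SNF remodeller, from end to end. It also covered 97.4% of zyg-11, for a substrate receptor of a ubiquitin ligase. The fourth, 8889 bp at chrII:7599450-7608338 (522.95), covered npp-21, for the nuclear pore protein TPR, and osm-8 inside it. The fifth, 8004 bp at chrII:9214817-9222820, had a score of only 137.30 and lay wholly within znfx-1, for a germ granule helicase in small RNA inheritance, of which it covered 84.7%. The eighth widest, 7434 bp at chrII:13083978-13091411 (218.70), covered 98.8% of gcn-2, for a kinase of the translation factor eIF2.

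**Figure D3:**
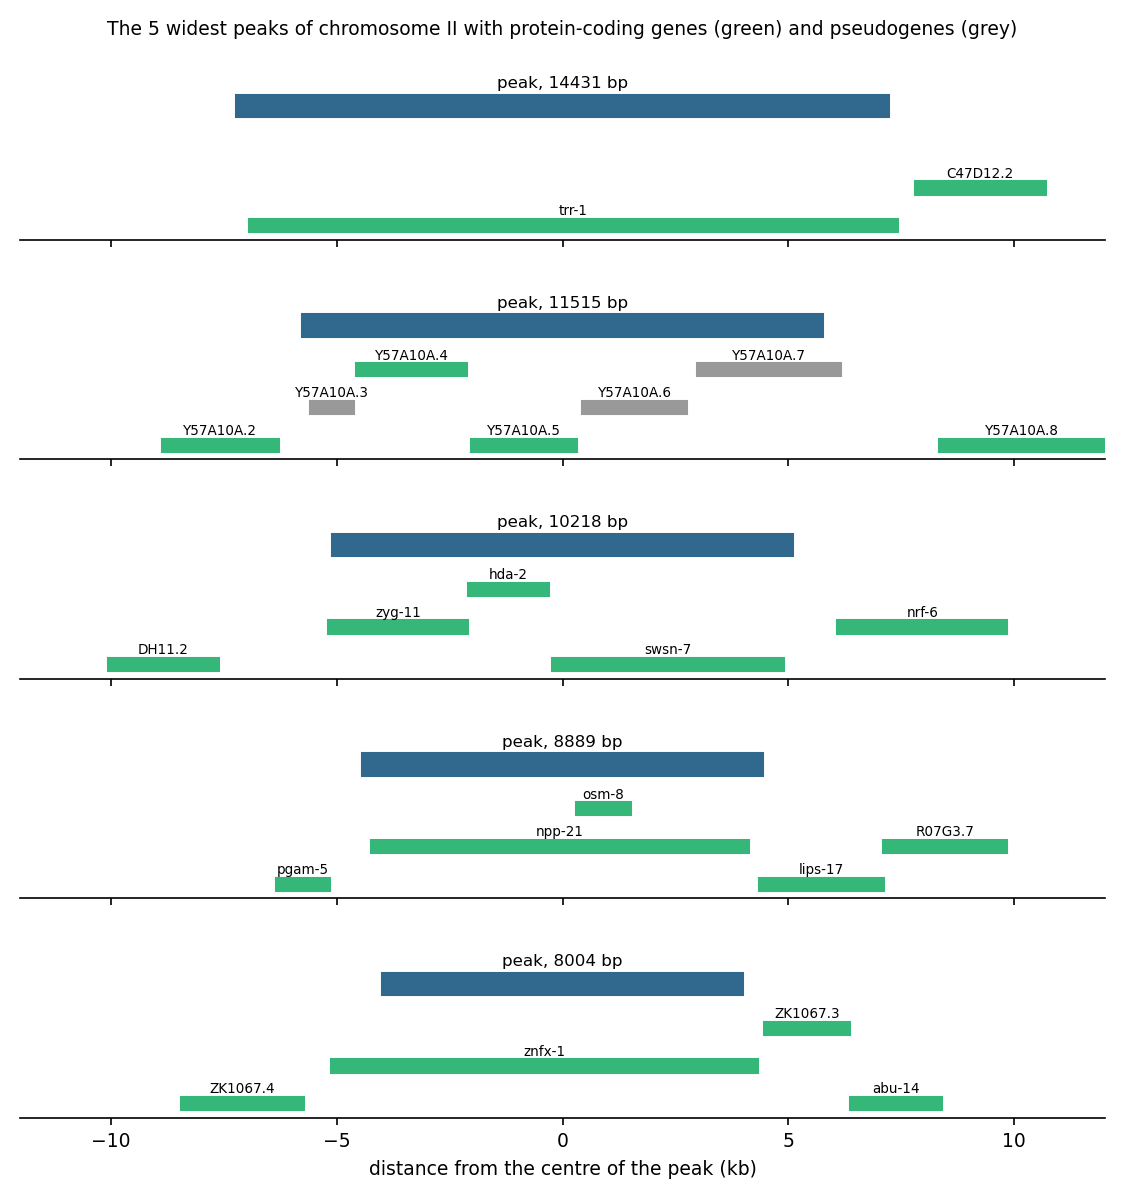
Each panel shows 1 of the 5 widest peaks of chromosome II (blue bar) with the protein-coding genes (green) and pseudogenes (grey) around it, against the distance from the centre of the peak in kb on the x axis, with bodies beyond 12 kb not drawn. Heights carry no value, the genes are placed from another build with positions uncertain by up to 500 bp, and trr-1 and npp-21 nearly match the extent of their peaks, and the body of znfx-1 runs past both ends of its peak.

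The stretch from 11000 to 12500 kb, which holds both widest peaks, was not uniform. It had 77 peaks with a median width of 2165 bp (quartiles 1520 and 2927 bp), against 2041 bp (1437.2 and 3103.2 bp) for the other 490. Peaks of 4000 bp or more were 10 of 77, 13% (exact 95% interval 6.41 to 22.6%), against 72 of 490, 14.7% (11.7 to 18.1%). The rest of II includes the centre, with its wider peaks, while the right arm as a whole, in which the stretch lies, had a median of 1816 bp and 9.88% of such peaks. Within the stretch the median was 2213 bp from 11000 to 12000 kb, with 63 peaks, and 1333.5 bp from 12000 to 12500 kb, with 14 peaks. Between 11000 and 12000 kb, 105 of 211 genes (49.8%) were at a peak, and between 12000 and 12500 kb 10 of 98 (10.2%). The 63 peaks from 11 to 12 Mb were more than in any other 1 Mb bin of II. The bin from 5 to 6 Mb came next with 57, and the bin from 12 to 13 Mb had 24.

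**Figure D4:**
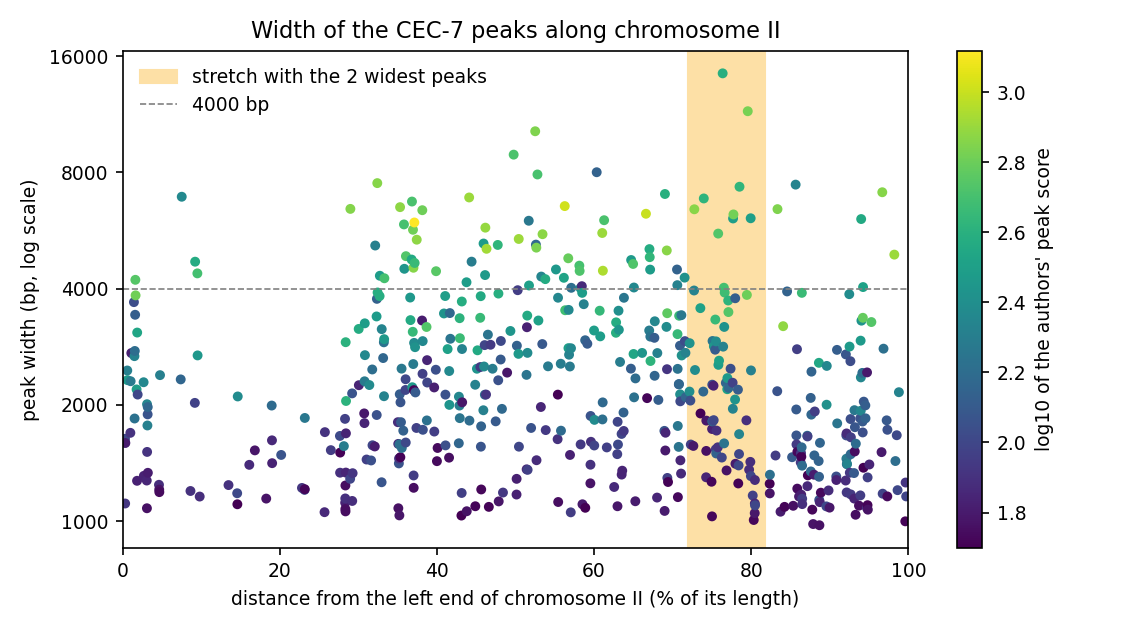
Each point is 1 of the 567 peaks of chromosome II, with its distance from the left end in percent of the length on the x axis and its width in bp on a log y axis, coloured by the log10 of the authors' score. The shaded stretch (11000 to 12500 kb) holds the 2 widest peaks, 14431 and 11515 bp, but 10 of its 77 points lie at or above the dashed line at 4000 bp.

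Of the 10 peaks of 4000 bp or more in that stretch, those not yet described lay at the following genes. The peak at chrII:11875170-11881393 (6224 bp, score 656.43) covered 99.6% of top-2, for DNA topoisomerase II. Its neighbour at chrII:11867855-11873930 (6076 bp, 308.90) lay within npp-3, for a scaffold protein of the nuclear pore. The peak at chrII:11578763-11584314 (5552 bp, 542.05) covered 98.8% of smc-6, for a DNA repair protein of the SMC family, and reached ints-7, for a subunit of the Integrator complex. Further left, chrII:11298041-11304886 (6846 bp, 418.30) covered raga-1, for a Rag GTPase of the TOR pathway, 90.1% of saps-1 and 71.4% of samp-1, for an inner nuclear membrane protein. Another, chrII:11992484-11999824 (7341 bp, 426.70) covered dhps-1, for deoxyhypusine synthase. At chrII:11690269-11694289 a peak of 4021 bp (495.60) covered 99.9% of tars-1, for threonyl-tRNA synthetase, and part of kel-1. The last, chrII:12210291-12216373 (6083 bp, 312.58), lay within pqn-87.

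Gene lists of 17 families and functions, drawn up by symbol, were read against the 21.3% of all protein-coding genes on II. They hold only a small part of the genes at peaks, and relatives with other symbols are left out. The lists were chosen with earlier results of these data known, and members at a peak are counted within 500 bp. Above that share stood 7 lists and below it 10. Peaks lay at 4 of 4 meiosis genes: zyg-12 and scc-2, described above, pch-2, for a chromosome axis ATPase (score 123.40), and dsb-2 (121.15). The exact interval for this short list began at 39.8%. With the higher-scoring 50% of peaks, 2 of the 4 were at a peak. On I, III, IV and V the share for meiosis genes was 60% of 50. Among oocyte and germ granule genes 10 of 15 were at a peak, all sharing bases with it. They included puf-8, for an RNA-binding protein (423.78), tofu-6, needed to make piRNAs (184.20), and the Nanos genes nos-3 (179.44) and nos-1 (143.44). Without a peak were egg-3, fbf-1, gld-3, mex-6 and puf-5. The pair fbf-1 and fbf-2 are near-identical, and fbf-2 had a peak (111.29). Whether reads were split between them was not tested. On I, III, IV and V, 55.3% of 47 oocyte and germ granule genes were at a peak. Among the higher-scoring 50% of peaks the count on II was 6 of 15.

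Genes for protein synthesis and turnover were divided. Splicing and translation factors had 13 of 23 members at a peak, led by eif-2Bepsilon (score 611.44), eif-3.L (515.21), ifg-1, for the scaffold eIF4G (370.61), and eif-3.F (164.55), which shared no base with its peak. Without a peak were, among others, eif-1, eif-3.G, ife-5 and iff-2. On I, III, IV and V the share for splicing and translation factors was 51.7% of 58. Mitochondrial ribosomal proteins with plain mrpl and mrps symbols had 7 of 10, 5 of them sharing bases, with mrps-22 (738.55), mrps-14 (375.30) and mrpl-53 (373.72) the highest of the list. The symbol match left out mrps-18.C (805.73) and dap-3 (738.55), described above, which are both covered whole. Proteasome subunits had 5 of 7, namely pbs-3 (727.24), rpt-4 (167.66), rpn-12 (98.44), rpn-5 (61.48) and rpn-9 (50.14), and not pas-7 or rpn-11. No base of rpn-12 was shared with its peak, and among the higher-scoring 50% of peaks the count was 2 of 7. On I, III, IV and V the share for proteasome subunits was 26.9% of 26. Cytosolic ribosomal proteins matched by symbol had 1 of 7: rpl-26 lay within 500 bp of a peak (479.55) that shared no base with it, and rpl-22, rpl-32, rpl-37.1 and rpl-42 were among the 6 without. The match left out rpl-37A, a gene of 276 bp that a peak covered whole (110.34). On I, III, IV and V the share for cytosolic ribosomal proteins was 16.1% of 56, and for mitochondrial ones 47.4% of 57.

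Chromatin and chaperone genes were also among those at peaks. All 7 heat shock and DNAJ genes of II were at a peak, 6 of them sharing bases, led by dnj-8 (376.89), dnj-5 (209.80), dnj-9 (161.75) and hsp-4, for the chaperone BiP of the endoplasmic reticulum (124.23). On I, III, IV and V the share of this list was 38.1% of 42. Among the higher-scoring 50% of peaks the count on II was 3 of 7. Of the chromodomain and histone methylation genes, 6 of 12 were at a peak. The 6 genes were ash-2, for a subunit of H3K4 methyltransferase complexes (220.92), set-14 (182.22), the chromodomain gene cec-3 (177.10), mes-2 (158.02), jmjd-2, for a histone demethylase (120.20), and set-24 (77.58). Of these 6, 5 lay on the right arm, which holds 6 of the 12 genes of the list. On I, III, IV and V the share for this list was 62.3% of 53. The genes without a peak were jmjd-1.1, rbbp-5, set-4, set-11, set-13 and set-17.

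**Figure D5:**
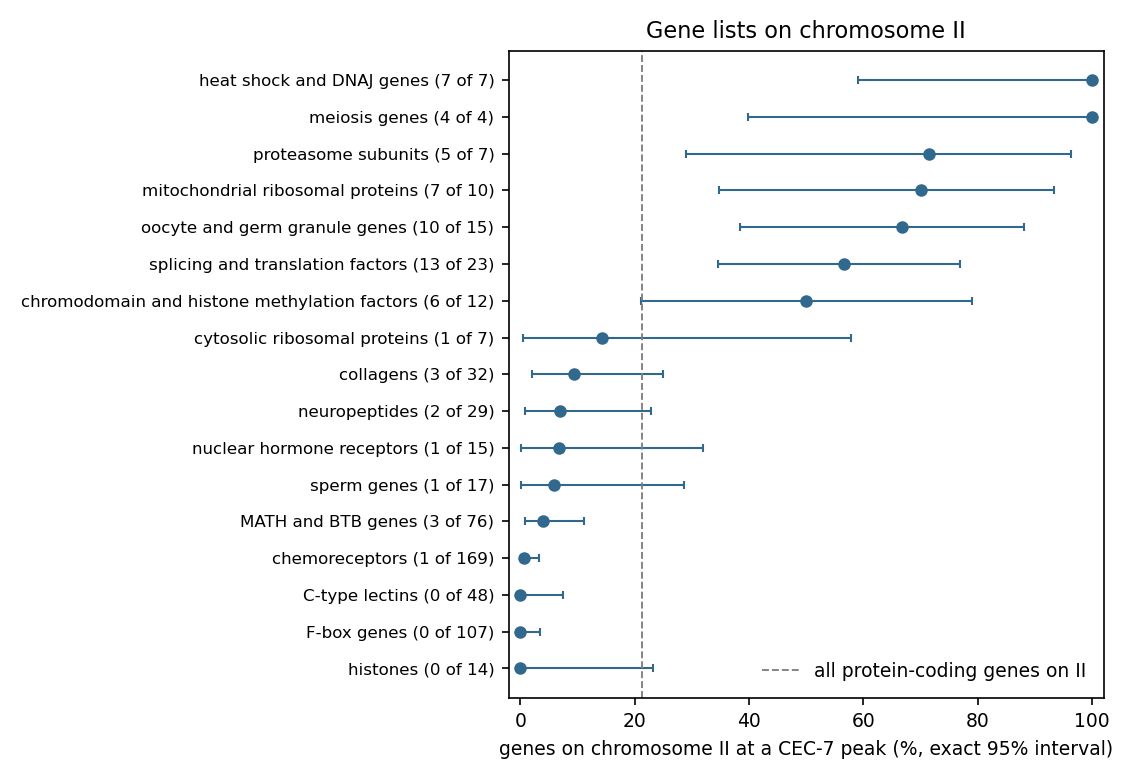
Points give the percent of each list's members on chromosome II with a CEC-7 peak within 500 bp and bars the exact 95% binomial interval (counting error only), with the counts in the labels. The dashed line is the 21.3% of all protein-coding genes on II. The 7 lists above it range from 50% to 100%, and 3 lists have no member at a peak.

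Shares below 21.3% were found for 10 lists. For chemoreceptors, F-box genes, MATH and BTB genes and C-type lectins the exact 95% interval ended below 21.3%. For the other 6, including the cytosolic ribosomal proteins above, it reached that share, with upper limits of 28.7% for sperm genes, 25% for collagens, 22.8% for neuropeptides and 31.9% for nuclear hormone receptors. Histone and sperm genes on II are short, with medians of 376.5 and 384 bp, and 12.8% of all genes in the shortest length class were at a peak. Of the 169 chemoreceptor genes on II, 1 was at a peak, srd-1, and it shared no base with it. F-box genes with fbxa, fbxb and fbxc symbols had 0 of 107 (upper exact 95% limit 3.39%), C-type lectins 0 of 48 (7.40%) and histone genes 0 of 14 (23.2%). F-box genes with other symbols were at peaks, namely fbxl-3 (756.54), mec-15 (194.44) and lin-23 (179.04), chosen after their values were seen. The MATH and BTB list had 3 of 76, bath-44 (score 85.13) and the neighbours btb-19 and btb-20 (69.97), none of them on the left arm, where 69 of the list lie. No base of btb-20 was shared with its peak, and btbd-10, outside the symbol match, was at a peak on the left arm (205.62). Most F-box genes and MATH and BTB genes lie on that arm, where 9.64% of all protein-coding genes were at a peak. The upper limit for MATH and BTB genes, 11.1%, reached that share, and the limit for F-box genes, 3.39%, did not. Between 5 and 25% of the length, where 93 F-box and 69 MATH and BTB genes lie, the share was 2.59%, below both limits. Whether these lists differ from other genes of the same place was not tested. Sperm genes had 1 of 17, spe-18 (63.66), and none of the genes for the major sperm protein, such as msp-142, msp-152, msp-3 and msp-31. Histone and major sperm protein genes have near-identical copies, and the treatment of reads that map to several places is not given in the sources at hand. Collagens had 3 of 32, col-74 (641.05), col-84 (308.90) and bli-2 (191.99). For col-84 the peak is the one within npp-3, in whose body col-84 lies. The peak at col-74, of 6383 bp, also lay at ehs-1 and tbc-2. Neuropeptide genes had 2 of 29, nlp-18 (264.53) and ins-15 (156.54), and nuclear hormone receptors 1 of 15, nhr-19, which shared no base with its peak. Peaks covered 3.42% of nlp-18 and 34.1% of ins-15, and with 500 bp shared the neuropeptide count was 0.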

How the data were processed

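The list comes from 1 ChIP-seq library of whole fem-2(b245) worms. The submitters' processing notes list BWA as a tool and ce10 as a build. Per the file headers, coordinates are on WormBase WS220, and the list names MACS as the caller. For its version, settings, read filters and use of the input, the entry is: not given in the sources used here. Each deposited peak has a start, an end (1-based) and a score by the authors' caller whose scale is not stated. The score was used only to describe and rank peaks within the list. Read depth is unknown, and weak sites below the caller's threshold are not listed.

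Genes, biotypes and the last gene end of II (taken as its length) come from RefSeq's table for WBcel235. No WS220 annotation was used, and the shift between builds was not measured here. The table has no strand and no sequence, so the gene-start values and promoter letters foreseen in the design were replaced by gene bodies within 500 bp or not run. Peaks and genes were assigned to arms by midpoint. Gene lists match symbols, so relatives with other symbols are left out.

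Named genes are those at the 10 highest scores, the 5 widest peaks, the peaks of 4000 bp or more at 11000 to 12500 kb, the 5 highest scores of each arm, and up to 4 list members with and without a peak. Genes named outside this rule, such as those of the sparse span, of runs of peaks, of short lists given whole and gcn-2, were chosen after their values were seen. Members and lists were chosen with earlier results of these data known. With 1 library no test was run. Exact binomial, exact Poisson and Newcombe 95% intervals cover counting error only. Alternatives changed the tolerance, arm borders, peak set and width limits. The code was tested on simulated data. Intervals came from SciPy 1.17.1, tables from pandas 2.3.3 with NumPy 2.4.6, and plots from matplotlib 3.10.9, under Python 3.11.15.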

Additional observations from a re-analysis of the deposited data

How the results depend on the processing

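The arm ratio of 2.27 kept its direction in all 6 alternatives run. None of them took only the outermost 5% of each end, where the left held 34 peaks and the right 17. The ratio was 3.19 with arms as the outer 25%, 3.0 per protein-coding gene, 2.44 with the outer 20% and 2.44 with the higher-scoring 50% of peaks. The difference of 18.2 points between the arms' gene shares was 10.7 with higher-scoring peaks, 13.4 when 500 bp had to be shared, 11.4 with the outer 20% and 17.7 without the 5 large families. The last value and the shared 500 bp were chosen after seeing the data. The share of genes at a peak, 21.3%, was 18.6% with no tolerance, 23.8% at 1000 bp, 14.1% for higher-scoring peaks and 16.0% with 500 bp shared. The median width at 11000 to 12500 kb minus the rest, 124 bp, reversed to -46 bp among higher-scoring peaks and was 257 bp from 10 to 13 Mb, and the cause was not tested. Wide peaks numbered 149 at 3000 bp, 45 at 5000 bp and 127 after merging, against 82. The share of gaps under 1000 bp, 27.7%, was 18.2% for 500 bp, 38.2% for 2000 bp and 21% for higher-scoring peaks. Of 68 counts of list members under alternatives, 49 stayed within 1.5 times and 19 did not. For the 3 lists with no member at a peak, the narrower settings could only return 0 again, and these are among the 49. Gene starts, promoter letters and their alternatives were not run, for want of strand and sequence. No paired analysis was possible because only 1 library has a peak list. The unknown depth limits statements about genes without a peak.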

Other observations

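Most small RNA genes of II that were at a peak lie inside protein-coding genes. Of 71 snoRNA genes 13 were at a peak (18.3%), and all 13 lie within a protein-coding gene. Of 49 miRNA genes 9 were at a peak (18.4%), and 8 of these lie within one. Many lie there whether or not at a peak, 43 of the 71 snoRNA and 23 of the 49 miRNA genes. Among protein-coding genes 21.3% were at a peak, and nearly all peaks had such a gene. The miRNA genes included mir-37, mir-38, mir-39, mir-40 and mir-41 of the mir-35 cluster, which is known for its role in embryos. They lie in Y62F5A.9 at the peak chrII:11538406-11541325 (score 241.55), whereas mir-35 and mir-36 of the same cluster were not within 500 bp of a peak. Only 11.8% of Y62F5A.9 was under peaks, while dhgd-1, at the same peak, was covered whole. The miRNA genes were counted within 500 bp, and their shared bases were not computed. The miRNA gene mir-45 was at the peak that covers top-2, with the snoRNA genes K12D12.6, K12D12.7 and K12D12.8. Of 57 tRNA genes 2 were at a peak (3.51%), and of 109 piRNA genes 8 (7.34%).

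The 11 peaks without a protein-coding gene within 500 bp were not all weak. The strongest, chrII:12137555-12141406 (3852 bp, score 639.14), lay at the pseudogene Y57A10A.1. It was close to the second widest peak of the chromosome, which covers 3 further pseudogenes in whole or in part. Of 313 annotated pseudogenes on II, 23 were at a peak, 7.35%. Of these 23, 22 lie outside protein-coding genes, as do 297 of all 313. Whether repeated sequence or the mapping of reads bears on these peaks was not tested.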
